A study of Mus musculus with 224 samples.

Results

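The corticotropin-releasing factor (CRF) and urocortin stress system was followed through 6 genes. They were chosen by symbol, as the probesets that the platform annotation gives to 1 of these genes alone: the ligands Crh, Ucn and Ucn3, the binding protein Crhbp, and the receptors Crhr1 and Crhr2. They were read by 8 of the 45037 probesets in the table, and by 6 of its 18193 named genes. Total RNA came from male C57BL/6J mice, bought at 10 weeks of age. It was read on Affymetrix arrays, with 43 from the CeA (central amygdala), 45 from the BNST (bed nucleus of the stria terminalis), 42 from the hippocampus (HPC), 47 from the PFC (prefrontal cortex) and 47 from the NAC (nucleus accumbens). CIE Drinking mice were exposed to chronic intermittent ethanol (CIE) vapor and drank ethanol between the exposures, Air Drinking mice drank but breathed air in the chambers, CIE NonDrinking mice breathed the vapor and had water only, and Air NonDrinking mice never met ethanol. Vapor was given for 16 h per day on 4 days in each of 4 cycles, and all 4 groups received the alcohol dehydrogenase inhibitor pyrazole at 1 mmol/kg. Both CIE groups were also injected with ethanol at 1.6 g/kg before vapor, which the air groups were not, so vapor and this injection cannot be told apart. The drinkers had 6 weeks of baseline sessions of 2 h with 15% ethanol. Drinking mice were killed 22 h after their last drinking, and CIE NonDrinking mice about 8 days after their last vapor, so drinking and time since the last ethanol cannot be told apart between CIE groups. Each region had 8 to 12 arrays per group, each from a different mouse. The labelled tissues were checked by marker lists, given as the mean log2 distance from the array median: cortical excitatory genes stood at 3.18 in the PFC, striatal genes at 4.76 in the NAC, hippocampal genes at 3.67 in the HPC and bed nucleus genes at 1.81 in the BNST, each the highest of the 5 regions for its list. The central amygdala list stood at 2.93 in the CeA, below 3.05 in the NAC and 3.51 in the BNST, so it did not single out the CeA. The array median itself was lower in the PFC (6.11) than in the other regions (6.85 to 7.04), which can raise distances in the PFC.

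CRF is a peptide released by hypothalamic and extended amygdala neurons, and it sets off the hormonal and behavioral responses to stress. It acts mainly through the receptor encoded by Crhr1, which couples to cyclic AMP production, while the urocortins bind the receptor encoded by Crhr2 and, in the case of urocortin, both receptors. A secreted binding protein, the product of Crhbp, holds CRF and urocortin away from the receptors. In alcohol research the system is known for its role in withdrawal and in the excessive drinking of dependent animals, with the CeA and BNST as its best known sites.

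In RefSeq (GRCm38.p6) Crh lies at chr3:19693401-19695396, Crhbp at chr13:95431376-95444831, Crhr2 at chr6:55090048-55133016, Ucn at chr5:31137989-31138895 and Ucn3 at chr13:3940688-3945349. Crhr1 and Crhr2 have 2 probesets each, called the first and the second in the order of their identifiers, and the other genes have 1. The proximal promoters give the sequence background for a ligand and both receptors, since Crhr1 carried all the called group comparisons and Crhr2 the widest spread of any member. The 150 bases before the RefSeq start (GRCm38.p6) are shown 5′ to 3′ on the gene's strand, with capitals for matches to a cyclic AMP response element (TGACGTCA), a TATA box core (TATAA) or a GC box (GGGCGG), searched on both strands. The Crhr1 window belongs to a transcript that starts inside the annotated gene (chr11:104130463-104175523).
Crhr1, chr11:104132631-104132780, plus strand: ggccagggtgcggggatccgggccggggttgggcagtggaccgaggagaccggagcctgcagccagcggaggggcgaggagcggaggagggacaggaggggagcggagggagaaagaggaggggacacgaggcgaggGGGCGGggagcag
Crhr2, chr6:55133017-55133166, minus strand: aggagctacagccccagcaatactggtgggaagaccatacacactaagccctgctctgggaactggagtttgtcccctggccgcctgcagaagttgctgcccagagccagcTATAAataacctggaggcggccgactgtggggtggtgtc
Ucn, chr5:31138896-31139045, minus strand: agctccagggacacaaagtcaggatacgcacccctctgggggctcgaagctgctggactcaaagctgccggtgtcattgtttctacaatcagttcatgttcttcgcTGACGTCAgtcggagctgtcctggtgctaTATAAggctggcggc
The Crhr1 window was 74.7% G or C, above 93.5% of all promoter windows, and held 1 GC box and no match to the other motifs. The Crhr2 window was 58.7% G or C and held a TATA core, and the Ucn window held a cyclic AMP response element beside a TATA core. Over 32851 promoter windows of the same length, TGACGTCA was found in 1.36%, TATAA in 14.2% and GGGCGG in 28.6%. The windows of Ucn3 and Crhbp held none of these letters, and Crh had no entry in the promoter table.

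The regions differed in how brightly each gene was read. Values were log2 intensities, given here as the distance from the median probeset of the same array because each region was normalized separately, and distances were not tested between regions. Distances do not put the regions on 1 scale. A list of 20 cyclic AMP and protein kinase A genes stood at 4.05 in the PFC, 3.48 in the NAC and 3.47 in the HPC. Crh, the CRF precursor, stood 2.73 ± 0.84 above the array median in the BNST (SD, n = 45), 2.30 ± 0.91 in the NAC (n = 47), 2.30 ± 0.87 in the CeA (n = 43), 0.73 ± 0.43 in the PFC (n = 47) and 0.40 ± 0.27 in the HPC (n = 42). The BNST, NAC and CeA lay within 1 SD of each other, and the PFC and HPC overlapped. Ucn and Ucn3, relatives of CRF that reach its receptors, were dim everywhere: the median array placed Ucn between the 21.2 and 31.7 percentile of its probesets, and Ucn3 between the 9.90 and 23.5 percentile. One further probeset was named Ucn2 by the platform but cites a sequence that RefSeq gives to Ucn3. It was left out of the members for that reason. It was equally dim, with mean distances from the array median of -2.16 to -2.69 in the 5 regions.

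Crhbp stood highest above the array median in the PFC, at 3.12 ± 0.18 (n = 47), where the array median was lowest. It followed at 1.67 ± 0.59 in the CeA (n = 43), 1.21 ± 0.79 in the HPC (n = 42), 0.62 ± 0.68 in the NAC (n = 47) and 0.55 ± 0.32 in the BNST (n = 45). Only the step from the PFC to the CeA was wider than the SDs of both neighbours. The first Crhr1 probeset stood highest in the BNST at 1.30 ± 0.22 and lowest in the CeA at 0.43 ± 0.43, with the HPC at 0.97 ± 0.17, the PFC at 0.85 ± 0.33 and the NAC at 0.51 ± 0.16 between them. The second Crhr1 probeset lay below the array median in all 5 regions on average. Both Crhr2 probesets lay below the array median in the PFC, NAC, HPC and BNST, and in the CeA the first stood at -0.03 ± 0.99 and the second at -2.02 ± 0.19. Both cite the same Crhr2 sequence record, and they disagreed in the CeA.

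**Figure D1:**
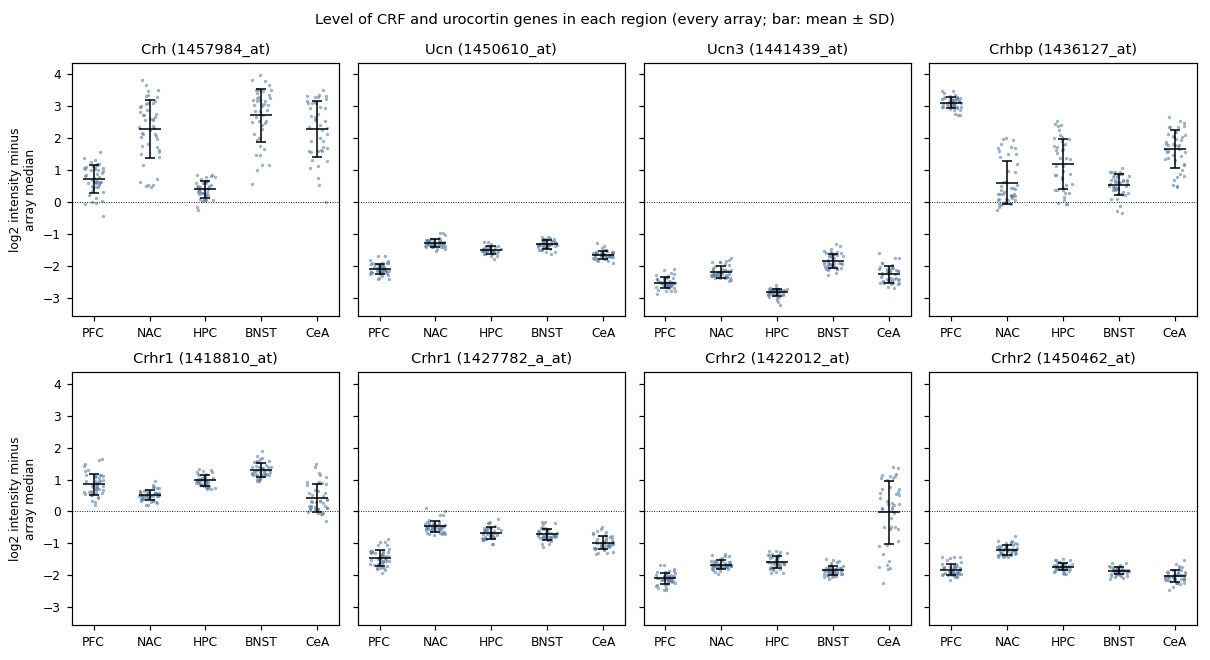
Log2 intensity minus the array median (y axis) of each of the 8 member probesets in the 5 regions (x axis), 1 point per array, with the mean ± SD. Crh is spread widely in the NAC, BNST and CeA, Crhbp is tight in the PFC and wide in the NAC, HPC and CeA, and Ucn and Ucn3 stay below the array median on every array.

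In the PFC, Crhr1 was lower in CIE Drinking mice than in both single-exposure groups, by its second probeset, and lower than in Air Drinking mice by both of its probesets. With the first probeset the CIE Drinking arrays ran from 6.34 to 7.24 with a median of 6.67, against 6.75 to 7.75 with a median of 7.14 in Air Drinking mice. The CIE NonDrinking arrays ran from 6.44 to 7.69 with a median of 7.14, and the Air NonDrinking arrays from 6.57 to 7.40 with a median of 6.83. The groups overlapped, with the CIE Drinking mice lowest and 11 of 12 of them below the Air Drinking mean.

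By LIMMA, Crhr1 (first probeset) decreased by 29.1% in Comparison 1, CIE Drinking against Air Drinking (log2 fold change -0.50, SE 0.11, 95% interval -0.72 to -0.27, adjusted p = 0.0042). The second probeset decreased by 21.5% in the same comparison (log2 fold change -0.35, SE 0.08, adjusted p = 0.00378), with 12 of 12 CIE Drinking arrays below the Air Drinking mean. In Comparison 3, CIE Drinking against CIE NonDrinking, the second probeset decreased by 24.5% (log2 fold change -0.41, SE 0.08, adjusted p = 0.000762). The first probeset had a log2 fold change of -0.38 there, which missed the FDR of 0.01 that defined a call (adjusted p = 0.0236). For the second probeset the CIE Drinking arrays ran from 4.17 to 4.68 with a median of 4.38, against 4.63 to 5.14 with a median of 4.81 in CIE NonDrinking mice, so these groups met only at their edges.

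Each exposure alone left Crhr1 in the PFC on the other side of zero, without a call. Comparison 2, CIE NonDrinking against Air NonDrinking, gave log2 fold changes of 0.24 (SE 0.11, adjusted p = 0.194) and 0.15 (SE 0.08, adjusted p = 0.256) for the first and the second probeset. Comparison 6, Air Drinking against Air NonDrinking, gave 0.35 (adjusted p = 0.0467) and 0.09 (adjusted p = 0.468). The vapor by drinking interaction, which is Comparison 1 minus Comparison 2, was called by limma for both probesets, at -0.74 (SE 0.15, adjusted p = 0.0019) and -0.50 (SE 0.11, adjusted p = 0.00243), where 2.92% of PFC probesets were called and 1.86% were called lower. In Comparison 4, CIE Drinking against the ethanol-naive mice, the log2 fold changes were -0.15 (adjusted p = 0.377) and -0.26 (adjusted p = 0.0329). These comparisons share groups, so their values are not independent of each other.

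**Figure D2:**
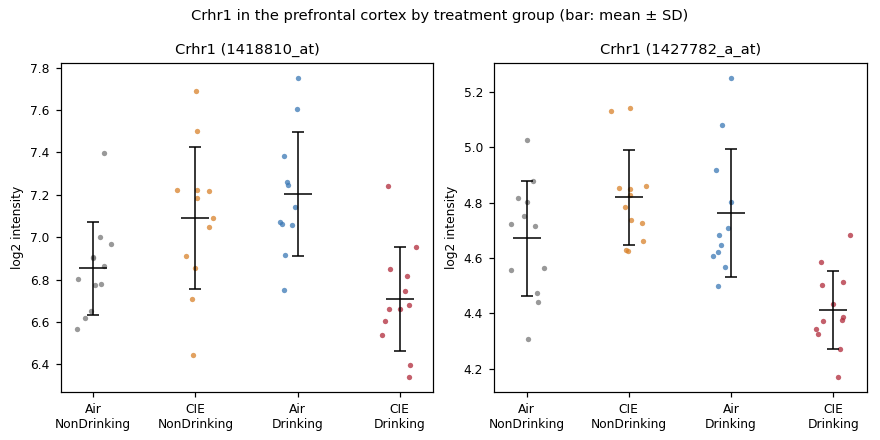
Log2 intensity (y axis) of the 2 Crhr1 probesets in the PFC for the 4 treatment groups (x axis), 1 point per array, with the mean ± SD. The CIE Drinking mean is the lowest of the 4 in both panels, and its log2 difference from Air Drinking is -0.50 for the first probeset (left) and -0.35 for the second (right).

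Marker genes of other cell types moved in the same PFC arrays. In Comparison 1 all 5 measured markers of striatal projection neurons had positive log2 fold changes (median 0.52, 0 called) and so did all 6 of oligodendrocytes (median 0.28, 0 called), and the median over all probesets was -0.01. Of 7 measured cortical excitatory genes 5 were negative and 2 positive (median -0.02), with Cux2 (-0.67) and Rorb (-0.50) called lower. Of 6 bed nucleus genes 4 were negative and 2 positive (median -0.01), with Moxd1 called higher (0.43), and 7 of 8 choroid plexus genes were positive (median 0.14, 0 called). The mean level of the striatal list ran from 1.73 to 3.67 above the array median in CIE Drinking and from 1.65 to 3.44 in Air Drinking mice, and that of the oligodendrocyte list from 5.48 to 5.86 and from 5.03 to 5.75. With the striatal list as a covariate, a setting added after the values were seen, Comparison 1 for Crhr1 (first probeset) was -0.44 (limma, adjusted p = 0.0161), with the oligodendrocyte list -0.37 (adjusted p = 0.0514) and with the cortical excitatory list -0.41 (adjusted p = 0.0197), none of which is a call. The second probeset lost its call in Comparison 1 with the oligodendrocyte list (-0.34, adjusted p = 0.0167). It kept it with the striatal list (-0.34, adjusted p = 0.00804) and the cortical excitatory list (-0.37, adjusted p = 0.00376). The estimate was -0.34 with both the oligodendrocyte and the striatal list, so these 2 outcomes differ in adjusted p and not in size. The interaction of the first probeset lost its call with the same 3 lists, at -0.63 with the striatal (adjusted p = 0.0146), -0.53 with the oligodendrocyte (adjusted p = 0.0475) and -0.59 with the cortical excitatory list (adjusted p = 0.0263). That of the second lost it with the oligodendrocyte list alone (-0.48, adjusted p = 0.0144), though the estimate moved little from -0.50 without a list. The Comparison 3 call of the second probeset held with all 4 lists tried. Across PFC arrays, with group means removed, the first Crhr1 probeset went against the oligodendrocyte list (r = -0.39, rho = -0.40, n = 47, permutation adjusted p = 0.0238 and 0.0235 over 270 relations of members with lists, r = -0.29 without the 2 farthest arrays). The part of tissue composition in the Crhr1 difference was otherwise not tested, and in bulk tissue fewer cells of a type and less RNA per cell cannot be told apart.

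Over the 6 comparisons and 5 regions, 3 of 240 member tests were called, all 3 for Crhr1 in the PFC. At an FDR of 0.05 there were 8, where 2.5% of all tests were called. The background share of called probesets was 1.87% in PFC Comparison 1 (1.06% lower) and 1.87% in PFC Comparison 3 (0.722% lower), and 0.768% over all regions and comparisons. The 4 remaining regions gave 0 of 192 calls by limma. They had 15 tests at an unadjusted p of 0.05 or less, a share of 7.81% against 12.3% of all tests there. The share of all tests called in these 4 regions alone is not given here. The 0 therefore does not set the members apart from other genes. The moderated F test over the 4 groups called the 2 Crhr1 probesets in the PFC, of 40 tests, where it called 6.18% of all PFC probesets.

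Differences of a comparison between pairs of regions were tested for all members, and 7 of 480 were called, where 0.509% of all such tests were. The response of Crhr1 in the PFC differed from its response in the BNST when the difference itself was tested. In the BNST, Comparison 1 gave 0.20 (SE 0.08, adjusted p = 0.121) for the first probeset, and the PFC minus BNST difference was -0.70 (SE 0.15, limma adjusted p = 0.00143). For the second probeset the same difference was -0.45 (SE 0.11, adjusted p = 0.00356). In these tests 2.33% of the 43893 probesets with values in all regions were called. In Comparison 3 the second probeset differed between PFC and BNST by -0.47 (adjusted p = 0.00856, background 0.321%) and between PFC and CeA by -0.46 (adjusted p = 0.00317, background 1.85%). The NAC and HPC did not differ from the PFC for Crhr1 past the threshold in any of the 6 comparisons.

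Crh varied widely between mice of 1 group in the NAC, BNST and CeA, and its group means lay far apart without a call. In the BNST the CIE Drinking arrays ran from 7.46 to 10.3 with a median of 9.37, against 8.57 to 10.9 with a median of 10.1 in Air Drinking mice. The groups overlapped over most of their range, and 11 of 12 CIE Drinking arrays lay below the Air Drinking mean. Comparison 1 gave a log2 fold change of -0.999 (SE 0.30, 95% interval -1.60 to -0.40, limma adjusted p = 0.0405), and the interaction was -1.48 (SE 0.44, adjusted p = 0.0619).

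In the NAC the Crh difference of Comparison 1 had the opposite sign, at 0.77 (SE 0.36, limma adjusted p = 0.259). The CIE Drinking arrays ran from 8.82 to 10.7 with a median of 9.96, against 7.52 to 10.5 with a median of 9.15 in Air Drinking mice. In the CeA it was -0.74 (SE 0.33, adjusted p = 0.276), with 7.96 to 10.2 and a median of 8.57 against 7.42 to 10.4 and a median of 9.90. None of the 3 was called, and in each region the groups overlapped. Background shares for Comparison 1 were 0.943% in the BNST, 0.282% in the NAC and 0.177% in the CeA. The difference between regions was called: NAC minus BNST was 1.77 (SE 0.40, adjusted p = 0.00535, background 0.601%) and NAC minus CeA was 1.51 (SE 0.40, adjusted p = 0.00939, background 2.05%). These tests took 1 spread per probeset from all regions. With group means removed, the SD of Crh was 0.89 in the NAC, 0.76 in the BNST and 0.85 in the CeA. It was 0.42 in the PFC and 0.23 in the HPC, so these SEs are smaller than the NAC, BNST and CeA arrays alone would give. Both differences use the NAC value and a BNST or CeA value of opposite sign. The NAC value turned to -0.060 (adjusted p = 0.956) with the cortical excitatory list as a covariate. The differences between regions were not fitted with this covariate. In the BNST, Crh went with the striatal list (r = 0.61, group means removed). That list had a mean level of 1.87 in CIE Drinking and 2.77 in Air Drinking mice there. BNST and CeA values with list covariates are not given here, so the limit may not be that of the NAC alone.

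Crhbp in Comparison 1 had the opposite sign to Crh in the NAC and in the CeA. In the NAC the CIE Drinking arrays ran from 6.82 to 8.03 with a median of 7.33, against 6.97 to 8.97 with a median of 7.95 in Air Drinking mice, and the log2 fold change was -0.60 (SE 0.27, limma adjusted p = 0.234). In the CeA they ran from 7.54 to 9.53 with a median of 8.94, against 7.37 to 8.95 with a median of 8.24, and it was 0.61 (SE 0.22, adjusted p = 0.150). Neither was called, and the NAC minus CeA difference was called at -1.21 (SE 0.32, adjusted p = 0.00859), again with a spread shared by all regions. The NAC value of Crhbp turned to 0.11 (adjusted p = 0.826) with the cortical excitatory list as a covariate. In the CeA, Crhbp also went with this list (r = 0.91, group means removed). The list had a mean level of 1.75 in CIE Drinking and 1.14 in Air Drinking mice there. The CeA value of Crhbp with this covariate is not given here.

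**Figure D3:**
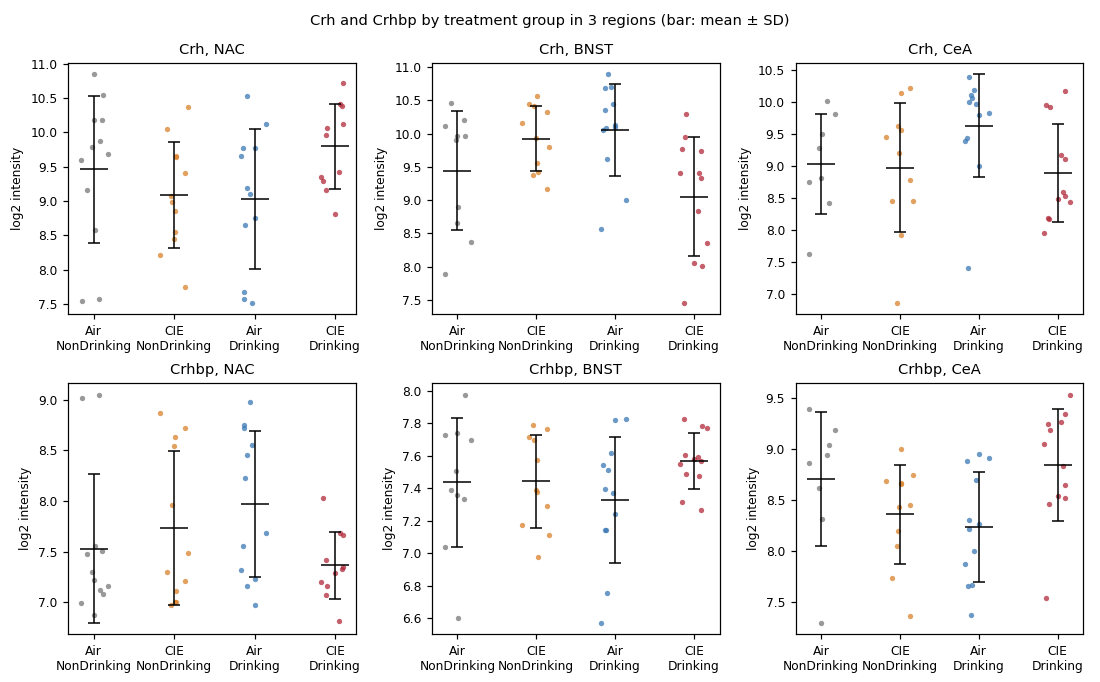
Log2 intensity (y axis) of Crh (upper row) and Crhbp (lower row) in the NAC, BNST and CeA for the 4 treatment groups (x axis), 1 point per array, with the mean ± SD. Every pair of groups overlaps, and the Crh mean of CIE Drinking mice is above that of Air Drinking mice in the NAC and below it in the BNST and CeA.

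In the HPC, where Crh varied less, it was lower on average after vapor without reaching a call. CIE NonDrinking arrays ran from 6.69 to 7.41 with a median of 7.15, against 7.06 to 7.73 with a median of 7.52 in Air NonDrinking mice, and 11 of 11 lay below the Air NonDrinking mean. Comparison 2 gave -0.38 (SE 0.10, limma unadjusted p = 0.000547, adjusted p = 0.284), in a comparison where 0 probesets of 44463 were called. The vapor term, the mean of Comparisons 1 and 2, decreased by 17.8% for Crh (log2 -0.28, SE 0.07, adjusted p = 0.0119), just short of a call. Called vapor terms made up 1.2% of HPC probesets.

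**Figure D4:**
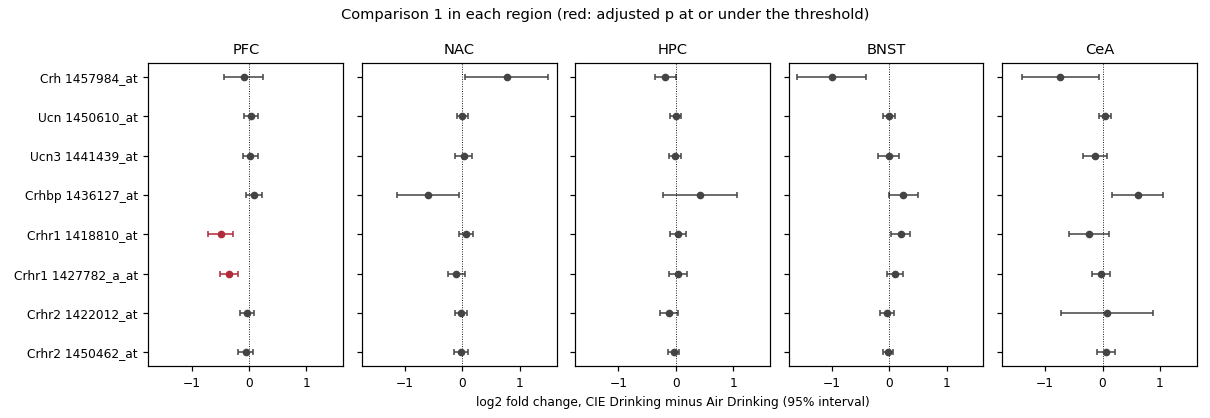
Log2 fold change of CIE Drinking minus Air Drinking (x axis) with its 95% interval for the 8 member probesets (y axis) in the 5 regions, with called tests in red. Both red points are Crhr1 in the PFC (-0.50 and -0.35), and the intervals of Crh and Crhbp are wide in the NAC and CeA.

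Ucn, Ucn3 and Crhr2 gave no called difference. Over 60 tests of Ucn and Ucn3 the log2 fold changes lay between -0.14 and 0.13, the 95% intervals reached from -0.34 to 0.28, and the smallest limma adjusted p was 0.158. These intervals bound the measured signal of dim probesets. For Crhr2 the smallest adjusted p was 0.0495, in PFC Comparison 4, where the first probeset had -0.19 (SE 0.06) and the second -0.17 (SE 0.06, adjusted p = 0.0726). Over all regions the first Crhr2 probeset had intervals that reached from -1.25 to 1.56 over its comparisons, widest in the CeA.

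The spread of Crh, Crhbp and Crhr2 between mice ran along with markers of the tissue. With group means removed, the SD of Crh in the NAC was 0.89, above 99.9% of probesets. Over all groups, with group means kept, its brightest NAC array was 10.0 times its dimmest. The same ratio was 10.8 in the BNST and 11.5 in the CeA, against 2.10 in the HPC. Crhbp had an SD of 0.67 in the NAC and 0.80 in the HPC, above 99.8% and 99.9% of probesets, and only 0.17 in the PFC.

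Of 270 relations of members with marker lists, 90 passed an adjusted p of 0.05, and several lists went together on the same arrays. The same share over all probesets was not computed, so this count does not set the members apart from other genes. Crh varied across CeA arrays with the list of central amygdala neurons (Prkcd, Tac2, Sst, Dlk1, Wfs1 and Nts), with Pearson r = 0.88 and Spearman rho = 0.90 (n = 43, permutation p = 1e-05 for both, the smallest they can give, adjusted p = 8.71e-05 and 9.31e-05 over 270 relations of members with marker lists). Without the 2 arrays farthest from the list's median r was 0.86, and with the bed nucleus list, which shares Tac2, r was 0.82. In the NAC Crh went with the same list (r = 0.81, rho = 0.80, n = 47, permutation p = 1e-05, r = 0.77 without the 2 farthest arrays) and against the cortical excitatory list (r = -0.74, rho = -0.71, permutation p = 1e-05, r = -0.67 without them). Crhbp in the NAC went with the cortical excitatory list (r = 0.86, rho = 0.83, permutation p = 1e-05, r = 0.82 without the 2 farthest arrays) and about as closely with the GABAergic list (r = 0.84). In the CeA Crhbp did so too (r = 0.91, rho = 0.85, n = 43, permutation p = 1e-05, r = 0.88 without them). In the HPC it went with the GABAergic list (r = 0.89, rho = 0.88, n = 42, permutation p = 1e-05, r = 0.88 without them) and the central amygdala list (r = 0.81), while in the BNST Crh went with the bed nucleus list (r = 0.71, rho = 0.66, n = 45, permutation p = 1e-05, r = 0.64 without them).

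Some of the lists moved with the Crh and Crhbp differences of Comparison 1. In the NAC the cortical excitatory list had a median log2 fold change of -0.45 (6 of 7 negative, 0 called) and the central amygdala list 0.29 (5 of 6 positive, 0 called). In the CeA the cortical excitatory list had 0.80 (5 of 7 positive, 0 called) and the central amygdala list -0.51 (6 of 6 negative, 0 called), with 8 of 8 choroid plexus genes positive (median 0.32) and 6 of 6 oligodendrocyte genes negative (median -0.37). In the BNST the striatal list, with which Crh also went there (r = 0.61, group means removed), had -0.78 (5 of 5 negative, 0 called). The bed nucleus list ran from 1.27 to 2.21 above the array median in CIE Drinking mice of the BNST. It ran from 1.25 to 2.25 in Air Drinking mice, nearly the same range.

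Crhr2 in the CeA followed choroid plexus markers. The choroid plexus, the secretory tissue of the ventricles, is marked here by Ttr, Kl, Folr1, Kcnj13, Clic6, Aqp1, Cldn2 and Otx2, and all 8 stood above the array median in the CeA on average, at 4.51 ± 1.57 as a list, against -0.42 to -0.96 in the NAC, HPC, BNST and PFC. The CeA arrays fell into a set of 10 with a list level from 0.88 to 2.59 and a set of 33 from 4.39 to 6.06. Crhr2 (first probeset) ran from 4.58 to 5.91 with a median of 5.24 in the first set. It ran from 6.28 to 8.27 with a median of 7.30 in the second, so the sets did not overlap. The second probeset overlapped (4.38 to 4.81 and 4.60 to 5.33). The share of all probesets without overlap between these sets was not computed. The separation therefore does not set Crhr2 apart from other genes. The smaller set held 7 arrays of drinking mice, 4 of them after CIE and 3 after air, and 3 arrays of mice without drinking, 1 after CIE and 2 after air.

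Relations within these sets were computed with group means kept. Within the 33 arrays Crhr2 followed the list level (r = 0.91, rho = 0.87, permutation p = 1e-05, adjusted p = 2e-05 over 8 relations, r = 0.89 without the 2 farthest arrays). Within the 10 arrays it did not (r = -0.37, rho = -0.37, permutation p = 0.301 and 0.297). The genes most like it over the CeA arrays were Cers4, Glb1 and Nipal2, with r = 0.96, 0.97 and 0.97 within the 33 arrays. Within the 10 arrays r was 0.66, 0.69 and 0.72, and that of Nipal2 dropped to 0.064 without the 2 farthest arrays. The choroid plexus list stood above the array median on all 43 CeA arrays. The first Crhr2 probeset varied with the list between the sets and within the 33 arrays, and not within the 10.

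**Figure D5:**
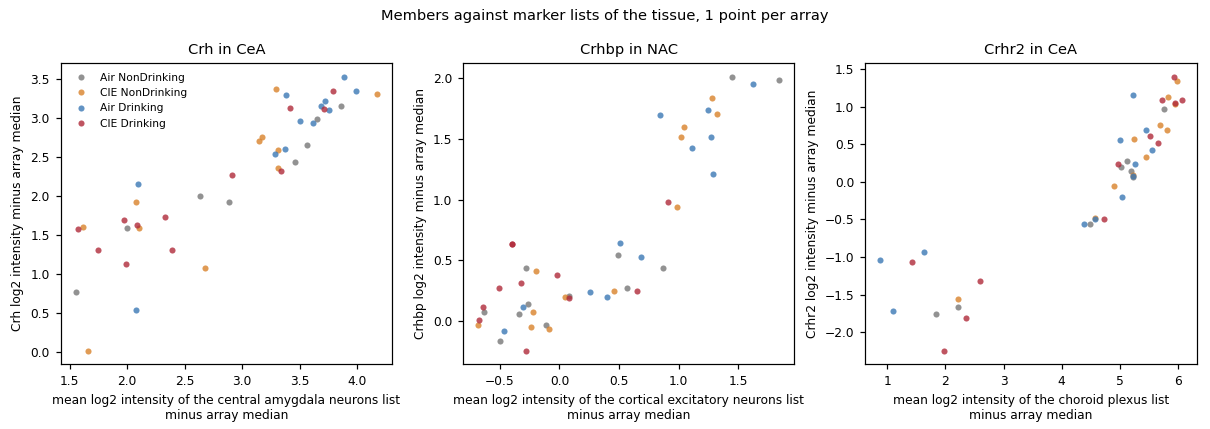
Log2 intensity minus the array median of Crh in the CeA, Crhbp in the NAC and Crhr2 (first probeset) in the CeA (y axes) against the mean level of a marker list on the same array (x axes), 1 point per array, colored by treatment group. All 4 groups lie along the same band in each panel, and the CeA arrays split into 10 and 33 by the choroid plexus list.

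The relation of Crh with its partners changed between regions. Over 10 relations with group means removed, Crh went with Crhbp in the PFC (r = 0.51, rho = 0.49, n = 47, permutation adjusted p = 0.000867 and 0.00183, r = 0.43 without the 2 arrays farthest from the Crh median) and against it in the NAC (r = -0.71, rho = -0.62, n = 47, adjusted p = 5e-05 for both, r = -0.63 without them). Crh went against Crhr1 in the BNST (r = -0.64, rho = -0.69, n = 45, permutation adjusted p = 5e-05 for both, r = -0.71 without the 2 farthest arrays). In the CeA it went with Crhr1 (r = 0.38, rho = 0.38, n = 43, permutation adjusted p = 0.0251 and 0.0298, r = 0.44 without them). The relation with Crhr1 in the NAC (r = 0.36, rho = 0.35, permutation adjusted p = 0.0251 and 0.0349) dropped to r = 0.19 without the 2 farthest arrays, so it rests on those arrays, and in the HPC neither relation passed. Since both genes of a pair follow tissue markers in several regions, the part of tissue composition in these relations was not tested.

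The genes most like each member, by Pearson r with group means removed in the region where the member was brightest, put Crh in the BNST with Gpr101 (r = 0.96, n = 45), an orphan receptor, Rsph9 (r = 0.90) and Gabra5 (r = 0.88), among 11190 genes. In the NAC Crh was most like Gpr101 (r = 0.94), Slc5a3 (r = 0.88) and Calcr (r = 0.88), and in the CeA most like Magel2 (r = 0.90), Gabrg1 (r = 0.90) and Tac2 (r = 0.88), where Gpr101 was not among the first 10. Crhbp in the PFC was most like 1110008P14Rik (r = 0.81, n = 47), Stac2 (r = 0.80) and the synaptic pentraxin Nptx2 (r = 0.77). It was most like Ncald (r = 0.97), Serpini1 (r = 0.97) and Ppm1e (r = 0.95) in the NAC, Plpp6, Ptprn2 and Scg5 in the HPC (r = 0.96, 0.96 and 0.95), and Gpr22, Neurod2 and Sv2b in the CeA (r = 0.93, 0.93 and 0.92). Crhr1 in the BNST was most like Fgf18 (r = 0.91), Atg4d (r = 0.90) and Klhdc8a (r = 0.88), and in the PFC most like Slc24a3 (r = 0.88), Acsl5 (r = 0.84) and Vstm2l (r = 0.84). The dim Ucn was most like Rpusd3, Timp2 and Gdf2 in the NAC (r = 0.69, 0.63 and 0.63), and Ucn3 most like Trpc7, Nrp2 and Sfxn1 in the BNST (r = 0.70, 0.69 and 0.64). These are descriptions over arrays that share tissue composition.

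Around the receptors, 49 genes of CRF signalling were measured in 4 lists, 1 probeset per gene. Of 1470 tests in the 6 comparisons, 6 were called by limma (33 with array weights, where the share of all tests called was 1.92% against 0.768%), all 6 in the PFC and in 4 genes, against background shares there of 1.26% (Comparison 2), 1.69% (Comparison 5) and 1.4% (Comparison 6), and the medians of the lists lay within 0.05 log2 units of 0 in the comparisons with a call. Pam, the enzyme that amidates CRF and other peptides, was lower in Comparison 1 (-0.28, SE 0.07, adjusted p = 0.00861) and Comparison 3 (-0.33, adjusted p = 0.00212), and was 1 of 5 measured peptide processing genes called in a group comparison. The interaction was called for Pam (-0.41, adjusted p = 0.0049), for the prohormone convertase Pcsk1 of the same list (-0.39, adjusted p = 0.0046) and for Plcb1 (-0.20, adjusted p = 0.00183). Of 11 measured genes of receptor regulation and Gq signalling, the receptor kinase Grk6 was lower in Comparison 1 (-0.10, adjusted p = 0.00745) and higher in Comparison 6 (0.12, adjusted p = 0.00402), and the phospholipase Plcb1 was higher in Comparison 2 (0.16, adjusted p = 0.00102). Of 20 genes of cyclic AMP and protein kinase A signalling, the catalytic subunit Prkacb was higher in Comparison 5, CIE NonDrinking against Air Drinking (0.14, adjusted p = 0.000814). None of 13 genes of the pituitary-adrenal axis and its glucocorticoid feedback was called in any region. These 13 include the probeset named Ucn2 that was left out of the members. It cites a Ucn3 sequence, so its values are not a result about Ucn2.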

How the data were processed

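The deposited series table holds log2 intensity values, which the authors made with RMA (version not given in the sources used here), quantile normalization within each region and a ComBat correction for hybridization batch; which array lay in which batch is not given in the sources used here. Groups, regions and mouse numbers came from the labels. Each region was fitted with limma 3.58.1 in R 4.3.3, with 1 mean per group, and p-values were adjusted (Benjamini-Hochberg) over all its probesets, with an adjusted p of 0.01 or less as a call. Effects were compared between regions in 1 fit over all arrays, in which level offsets cancel. This fit has 1 spread per probeset for all regions, so it does not follow a spread that differs between them. The labels give a mouse number to each array, 51 in all, each in 1 treatment group, so arrays of 1 number are from the same animal; the consensus correlation of such arrays was 0.015 after group and region means. The fit was tested on simulated data. Correlations used permutation tests with 100000 resamples, for which list levels were the mean of 1 probeset per gene.

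Every member probeset is described. From each pathway list the called genes with the smallest adjusted p are named, 3 at most, and for each member the 3 genes most like it, and the same for Crhr1 in the PFC, Crh in the NAC and CeA, and Crhbp in the NAC, HPC and CeA, regions chosen after their values were seen. The members and all lists were chosen with earlier results of these data known. Probesets with several symbols (932) or none (9160) were not used for named genes. All arrays were used, and their number limits the precision. Replicates are separate mice. Gene positions are those of RefSeq for GRCm38.p6. The alternatives were a filter on dim probesets, trended and robust variances, array weights, a second quantile normalization, fits of only the 2 groups compared, gene means over probesets, an FDR of 0.05, the mouse number as a block, and marker lists as covariates.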

Additional observations from a re-analysis of the deposited data

Results flagged for a closer look

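Effects of 1 contrast that differed between groups of mice or between regions, by a test of the difference itself, were the following. In the PFC the vapor effect on Crhr1 differed between drinking and non-drinking mice by -0.74 (first probeset) and -0.50 (second probeset) on the log2 scale. Between regions, Comparison 1 differed for Crh by 1.77 (NAC minus BNST) and 1.51 (NAC minus CeA), for Crhbp by -1.21 (NAC minus CeA), and for Crhr1 by -0.70 (first probeset) and -0.45 (second probeset) for PFC minus BNST. Comparison 3 differed for the second Crhr1 probeset by -0.47 (PFC minus BNST) and -0.46 (PFC minus CeA). The sign of Crh and of Crhbp in Comparison 1 in the NAC turned with the cortical excitatory list as a covariate, so the differences between regions that use these values carry the same limit, which was not tested further. In 24 pairings of a member probeset with a group of 8 or 10 arrays, 0 arrays lay beyond Dixon's critical value, where chance gives about 1 in 20. These groups were the Air NonDrinking mice of the HPC, CeA and BNST. Larger groups were not examined, so no PFC group and no ethanol-exposed group was checked in this way.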

How the results depend on the processing

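The 3 called member comparisons became 1 of 90 tests when only probesets above the median probeset were kept, since the second Crhr1 probeset then drops out, 8 of 240 at an FDR of 0.05 (2.5% of all tests), and 1 with the oligodendrocyte list as a covariate. Of the 2 called interaction terms, 1 kept its call with the cortical excitatory list and 1 with the striatal list as a covariate. With the oligodendrocyte list neither kept it, and the 1 term then called was Crh in the HPC for vapor. Covariates were chosen after seeing the data, and one that differs between groups takes up part of their difference. The F test gave 1 call in place of 2 under the dim filter. The 7 called differences between regions stayed at 7 with the mouse number as a replicate block, were 6 after quantile normalization over all arrays, and were 4 when only probesets above the median in every region were kept. Pathway genes went from 6 to 33 calls with array weights, under which the share of all tests called rose from 0.768% to 1.92%. Single values that turned sign were, with the cortical excitatory list, Crh in the PFC in Comparison 6 (-0.21) and the drinking term (-0.10), Crh in the NAC in Comparison 1 (-0.060), and Crhbp in the NAC in Comparison 1 (0.11) and the interaction (0.021). The uncalled correlations of Crh with Crhr1 in the PFC (-0.14, gene means) and with Crhbp in the HPC (-0.013, group means kept) turned too. Crh in the HPC passed for vapor with array weights (adjusted p = 0.00961) and under the dim filter (adjusted p = 0.00883), and with the oligodendrocyte list (adjusted p = 0.0076). Of the values of 62 single tests under these settings, 412 kept sign and side of the threshold, 10 dropped below it, 4 passed it and 7 turned sign. The tests followed were member tests with an unadjusted p of 0.05 or less, called differences between regions and the correlations of Crh. Many were uncalled, so the 412 include uncalled tests that stayed uncalled and do not measure how firm the calls are. The dim Ucn and Ucn3 probesets limit what could be seen.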
